A study of Mus musculus with 12 samples.

Results

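The transcription factor NRF2 and its response to oxidants were followed in lung lymphatic endothelial cells (LECs) through 10 genes, taken by symbol as the factor itself, its inhibitor and 8 of its best-known targets. These were Nfe2l2, which encodes NRF2, Keap1, Nqo1, Hmox1, Gclc, Gclm, Slc7a11, Txnrd1, Srxn1 and G6pdx. Each symbol matched 1 of the 52636 Ensembl gene identifiers counted. All 10 genes passed the filter on low counts that left 21440 genes for testing, with between 48 and 13446 counts in a library. LECs were sorted from the lungs of male and female Prox1-EGFP mice, in which control sequence of the lymphatic gene Prox1 drives a green fluorescent protein, as live cells that carried CD31 and the fluorescent protein and lacked a mix of blood lineage markers and the epithelial protein EPCAM. From 6 weeks of age the mice breathed cigarette smoke (CS) or room air (RA), for 8 weeks in the acute groups and for at least 24 weeks in the chronic groups, as the study's methods give these times, whereas the sample labels carry 8wk and Aged as ages. Libraries numbered 2 for either acute group, 5 for chronic CS and 3 for chronic RA, and are named here by group, sex and number. Each acute library pooled LECs of 2 to 5 mice, whereas the chronic libraries were not pooled. With so few libraries per group, p-values measured the spread between these libraries. The main fit estimated this spread over all groups together, so that acute p-values also drew on the chronic libraries.

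NRF2 is made continuously and is held at a low level by KEAP1, which brings it to a ubiquitin ligase for breakdown. Oxidants and electrophiles modify cysteines of KEAP1, so that NRF2 escapes, pairs with a small MAF protein and binds antioxidant response elements (AREs) beside genes for glutathione synthesis, thioredoxin reduction, quinone and haem metabolism and NADPH supply. Cigarette smoke is rich in oxidants and electrophiles, and NRF2 in the lung is best known from airway epithelium and macrophages. NRF2 is controlled mainly through the stability of the protein, so that Nfe2l2 mRNA is not a measure of NRF2 activity.

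The sequences just upstream of the genes are given first because the core of the ARE, TGACNNNGC, is the element through which NRF2 acts. RefSeq windows of GRCm38.p6, 250 bases before to 50 bases after a transcription start, were found for 8 of the 10 genes and were searched on both strands. The windows of Hmox1 and Gclc were not used here. The ARE core was found for 5 of these 8 genes, in 5 of their 10 windows, and in 12.4% of all 32851 windows of the same length. Those 5 windows are printed 5′ to 3′ on the strand of the gene, with the ARE core in capitals and, for Srxn1, also the AP-1 element TGAGTCA, the letters of which can overlap an ARE.
Nfe2l2 (chr2:75704614-75704913, minus strand): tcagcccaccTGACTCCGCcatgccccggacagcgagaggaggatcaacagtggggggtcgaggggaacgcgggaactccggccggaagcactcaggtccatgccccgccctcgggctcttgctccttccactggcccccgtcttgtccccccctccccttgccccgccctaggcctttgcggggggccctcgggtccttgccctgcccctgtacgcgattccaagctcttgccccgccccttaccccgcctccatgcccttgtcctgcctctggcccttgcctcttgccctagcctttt
Gclm (chr3:122245307-122245606, plus strand): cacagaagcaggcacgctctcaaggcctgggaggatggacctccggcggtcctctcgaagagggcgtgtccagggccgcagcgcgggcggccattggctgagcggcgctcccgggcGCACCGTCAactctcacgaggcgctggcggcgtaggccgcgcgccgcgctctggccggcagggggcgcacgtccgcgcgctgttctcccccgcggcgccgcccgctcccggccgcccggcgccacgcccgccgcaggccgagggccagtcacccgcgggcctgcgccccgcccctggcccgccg
Txnrd1 (chr10:82858956-82859255, plus strand): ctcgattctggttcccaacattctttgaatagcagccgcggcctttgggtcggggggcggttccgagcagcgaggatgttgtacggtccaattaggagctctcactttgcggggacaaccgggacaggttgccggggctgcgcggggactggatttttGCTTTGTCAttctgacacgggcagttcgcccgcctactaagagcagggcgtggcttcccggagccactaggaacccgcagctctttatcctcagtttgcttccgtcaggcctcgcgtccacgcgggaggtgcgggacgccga
Srxn1 (chr2:152105274-152105573, plus strand): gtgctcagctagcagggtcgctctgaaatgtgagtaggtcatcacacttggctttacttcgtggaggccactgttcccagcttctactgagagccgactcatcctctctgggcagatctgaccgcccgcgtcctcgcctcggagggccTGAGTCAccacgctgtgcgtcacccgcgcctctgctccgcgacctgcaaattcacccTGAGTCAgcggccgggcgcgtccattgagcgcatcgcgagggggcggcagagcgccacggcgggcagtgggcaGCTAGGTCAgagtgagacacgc
G6pdx (chrX:74428831-74429130, minus strand): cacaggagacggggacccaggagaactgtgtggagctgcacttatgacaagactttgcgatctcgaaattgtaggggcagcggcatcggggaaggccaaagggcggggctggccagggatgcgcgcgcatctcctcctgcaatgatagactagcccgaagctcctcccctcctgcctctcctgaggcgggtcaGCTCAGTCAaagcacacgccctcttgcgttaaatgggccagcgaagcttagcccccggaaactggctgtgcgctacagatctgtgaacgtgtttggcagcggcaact
The core reads in the direction of the gene in Nfe2l2 and on the opposite strand in Gclm, Txnrd1, Srxn1 and G6pdx, where the capitals are its reverse complement. Counted from the start, with negative numbers upstream, the first capital of the core stood at base -240 in Nfe2l2, -134 in Gclm, -92 in Txnrd1, -57 in G6pdx and 29 in Srxn1. The AP-1 element of Srxn1 began at bases -102 and -45. The AP-1 element was found in 5.20% of all windows and in no other window of the 8 genes. Keap1, Nqo1 and Slc7a11 had no ARE core in their windows, which says only that these letters were not in the stretch searched. A match in letters is not a measurement of binding.

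Total counts ranged from 18821438 to 56998590 per library, so that 3 counts, taken as the floor, corresponded to 0.0526 to 0.159 counts per 1000000 counts of the library (CPM). Both acute CS libraries stood apart from the rest in markers of other cells. The summed CPM of 8 leukocyte markers was 1609 and 2324 in acute CS, 254 and 258 in acute RA, 169 to 241 in chronic RA and 162 to 424 in chronic CS, and 7 of the 8 rose in acute CS. The 12 alveolar macrophage markers summed to 2876 and 3183 CPM in acute CS, 748 and 856 in acute RA, 649 to 758 in chronic RA and 732 to 1170 in chronic CS. In acute CS 4 of the 12 rose and 1 fell, Mrc1, a mannose receptor that LECs also carry (log2 fold change -0.94). The median log2 fold change of the 12 was 4.08, with 11 of the 12 above 0, a larger change than the sums show. Car4 was in this list and in that of blood endothelium, so these 2 sums are not separate. The 8 lymphatic markers, none of which was at 0 in all libraries of a group, summed to 5952 and 9159 CPM in acute CS and to 13628 to 21390 CPM in the other libraries. In acute CS 2 of the 8 passed, both lower. Of the 8 log2 fold changes 7 were below 0 and 1 was above, at 0.67. Prox1 itself was at 1042 and 1262 CPM in acute CS and at 1814 to 2476 CPM elsewhere. The 10 markers of blood endothelium summed to 6219 and 8342 CPM in acute CS and to 3242 to 4248 CPM in the other libraries, and 6 of the 10 rose in acute CS. The 10 mesenchymal markers summed to 652.5 and 1023 CPM in acute CS and 135.5 and 207.9 CPM in acute RA, where 6 of the 10 rose, and to 212.4 to 352.7 CPM in chronic CS and 120.6 to 148.4 CPM in chronic RA. The 12 epithelial markers were at 8893 CPM in acute CS F, 234.5 in acute CS M, 1934 in acute RA F and 1081 in acute RA M, and were higher in all 5 chronic CS libraries (1205 to 5122 CPM) than in the 3 chronic RA libraries (252.5 to 518.4 CPM). The 7 erythroid markers were at 698.1 CPM in acute CS M against 10.7 in acute CS F, and ranged from 9.69 to 432.7 CPM in the other libraries. In bulk RNA, fewer LECs in a sort and less RNA per LEC cannot be told apart.

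**Figure D1:**
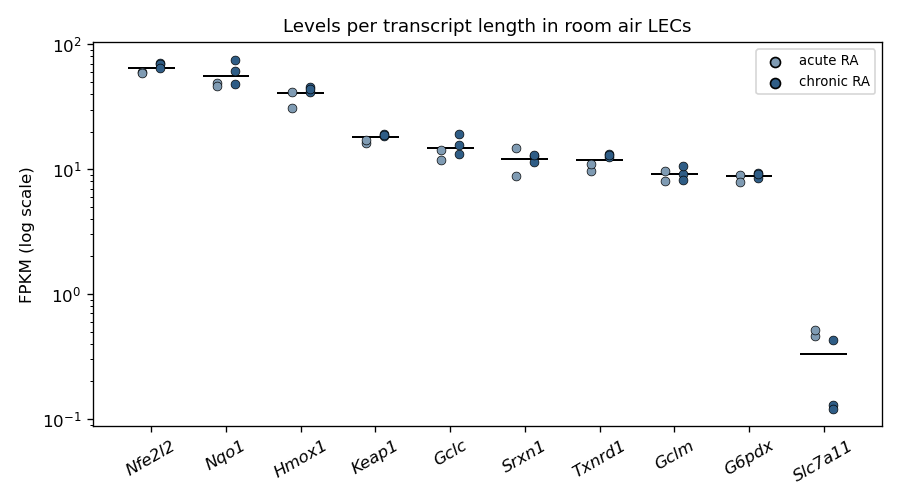
Levels of the 10 NRF2 pathway genes per exon length, as CPM per kilobase of exon (FPKM, log scale), in the 2 acute and 3 chronic room air libraries (points), with the mean of the 5 as a line. Nfe2l2, Nqo1 and Hmox1 lay above 30 FPKM in each library and Slc7a11 below 1 FPKM.

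In room air, mRNA for NRF2 was abundant in LECs and that for the cystine carrier was the lowest of the 10 genes. Per length of the exons, Nfe2l2 was highest at 64.9 ± 5.73 FPKM (SD, n = 5 room air libraries), followed by Nqo1 at 56 ± 12.03 FPKM, and their ranges overlapped. Hmox1 came next at 40.7 ± 5.61 FPKM, below the range of Nqo1 and above that of all the others. Keap1 followed at 18.0 ± 1.27 FPKM, Gclc at 14.8 ± 2.72 FPKM, Srxn1 at 12.1 ± 2.18 FPKM and Txnrd1 at 11.9 ± 1.48 FPKM. These were followed by Gclm at 9.13 ± 1.09 FPKM and G6pdx at 8.78 ± 0.577 FPKM. From Keap1 down to G6pdx each gene's range overlapped that of the next, so that neighbours in this order were not resolved, whereas Keap1 lay above the ranges of Srxn1, Txnrd1, Gclm and G6pdx, Gclc above those of Gclm and G6pdx, and Txnrd1 above that of G6pdx. Slc7a11 was far below at 0.329 ± 0.190 FPKM, or 1.67 to 7.11 CPM. With the length of the longest transcript in place of the union of exons, mean levels were 99.6 FPKM for Nfe2l2, 56 for Nqo1 and 45.4 for Hmox1. They were 23.2 FPKM for Txnrd1 and 0.497 for Slc7a11. The nearness of Nfe2l2 to Nqo1, the separation of the Hmox1 and Nqo1 ranges and the place of Txnrd1 thus depended on the length used.

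After acute smoke, 1 of the 10 genes, G6pdx, rose and none fell, in a comparison where edgeR's quasi-likelihood test called 3.47% of all genes tested, 2.75% as higher and 0.723% as lower. The median log2 fold change of the 10 genes was 0.20, beside 0.04 over all genes tested, and 7 of the 10 values were above 0, beside 53.0% of all genes. This median was 0.06 without acute CS M and 0.31 without acute RA M. Both acute CS libraries lay beyond both acute RA libraries for 4 of the 10 genes, for G6pdx, Gclc and Txnrd1 above and for Keap1 below, and for 49.9% of all genes tested, 27.4% above and 22.5% below. After chronic smoke, 0 of the 10 genes passed (edgeR, 0% of all genes tested). At an unadjusted p under 0.05 the count was 0 of 10, beside 10.9% of all genes, and DESeq2 called 0 of the 10 where it called 524 of all genes. The count at an unadjusted p under 0.05 was 3 of 10 without chronic CS M4 and with chronic CS F, M1 and M2 only, beside 2667 and 3226 of all genes. It was also 3 of 10, beside 2641 of all genes, with the replicate block, a term for the sex and number that libraries share. Chronic CS M3 and M4 share no number with a control, so in this comparison the block rests on the same F, M1 and M2. The count was 1 of 10 without chronic CS M2 and without the filter on low counts, beside 2208 and 2643 of all genes. The median log2 fold change of the 10 genes was 0.01 in the chronic comparison, and -0.10 to 0.05 with a chronic library left out. This median was -0.25 with the replicate block, -0.23 with chronic CS F, M1 and M2 only, and 0.16 with chronic CS M3 and M4 only. The plot of normalised counts by library shows each gene in each library, and the plot of fold changes shows both comparisons side by side.

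**Figure D2:**
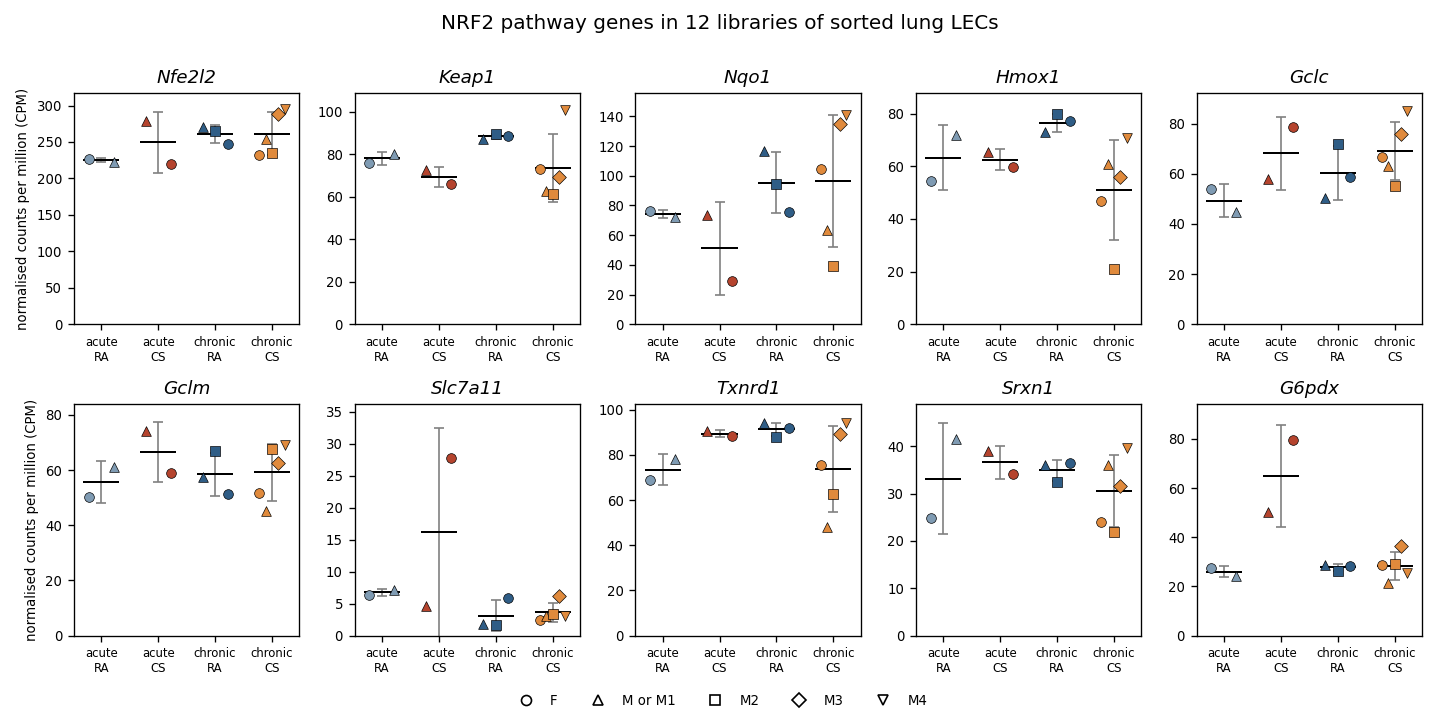
CPM (normalised counts) of the 10 NRF2 pathway genes in each of the 12 libraries, grouped by exposure, with symbols for sex and number, the group mean as a black line and ± 1 SD as a grey bar (cut at 0 for Slc7a11). G6pdx is at 50.1 and 79.5 CPM in acute CS and at 21.5 to 36.6 CPM in the 10 other libraries.

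**Figure D3:**
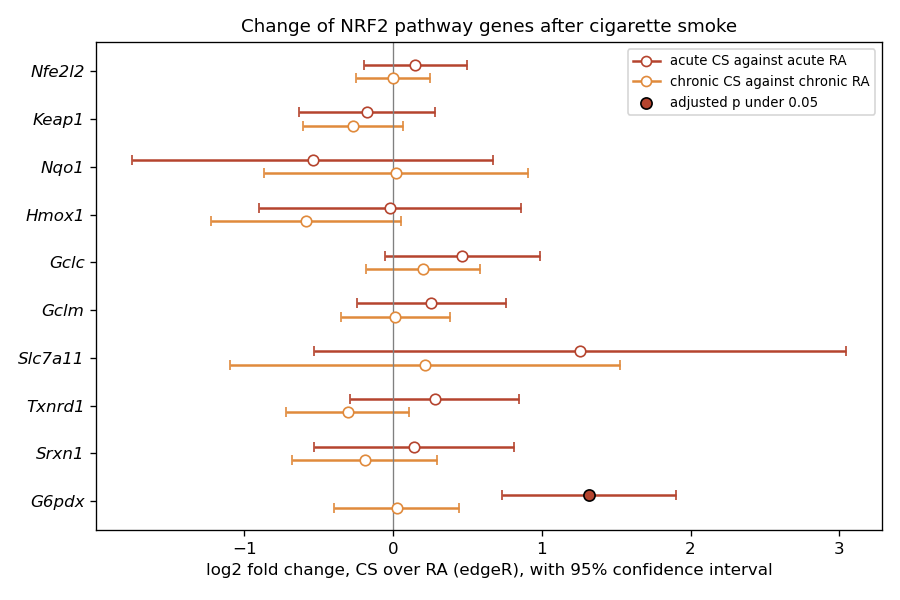
Log2 fold changes of CS over RA with 95% confidence intervals from edgeR for the 10 NRF2 pathway genes, in the acute (red) and chronic (orange) comparison, with filled points for an adjusted p under 0.05. The only filled point is G6pdx in the acute comparison at 1.32, and the intervals of all the other points include 0.

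Nfe2l2 (ENSMUSG00000015839; chromosome 2, 75675513 to 75704641, GRCm38) encodes NRF2. It was counted at 226.8 and 222.8 CPM in acute RA F and M, and at 220.0 and 279.0 CPM in acute CS F and M. Only acute CS M lay above the controls, and the groups overlapped. The log2 fold change was 0.15 (95% confidence interval -0.19 to 0.49, edgeR's adjusted p = 0.763), being -0.03 without acute CS M and 0.31 without acute CS F. In chronic RA M1, M2 and F it was at 270.6, 265.4 and 246.8 CPM, and in chronic CS F, M1, M2, M3 and M4 at 232.0, 254.5, 235.1, 288.3 and 295.1 CPM. The chronic CS libraries lay on both sides of the controls, with a mean of 261 CPM in either group. The chronic log2 fold change was 0.00 with an interval of -0.25 to 0.25 (edgeR's adjusted p = 1), so that a change of Nfe2l2 mRNA beyond 1.19-fold in either direction lay outside the interval.

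Keap1 (ENSMUSG00000003308; chromosome 9, 21229730 to 21239361) encodes the adaptor that presents NRF2 for breakdown. Acute RA F and M had 75.9 and 80.2 CPM and acute CS F and M 65.8 and 72.4 CPM. Both acute CS libraries were below both controls, by less than the test could resolve (log2 fold change -0.18, interval -0.63 to 0.28, edgeR's adjusted p = 0.808). In chronic RA it was at 87.2, 89.4 and 88.7 CPM in M1, M2 and F, a spread of 1.17 CPM (SD, n = 3). In chronic CS it was at 72.9, 62.8, 61.3, 69.4 and 100.5 CPM in F, M1, M2, M3 and M4. Thus 4 of the 5 chronic CS libraries lay below the controls and M4 above them, and the log2 fold change of -0.27 had an interval of -0.60 to 0.07 (edgeR's adjusted p = 0.537). Without chronic CS M4 it was -0.41. The antisense gene Gm16754 overlaps Keap1, and since the strand setting of the counting is not stated, reads of both cannot be told apart.

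Nqo1 (ENSMUSG00000003849; chromosome 8, 107388225 to 107403206) encodes a quinone reductase and is a widely used marker of NRF2 activity. It was counted at 76.1 and 72.4 CPM in acute RA F and M. It was at 73.4 CPM in acute CS M and at 28.8 CPM in acute CS F, the lowest value of all 12 libraries. The groups overlapped, and the log2 fold change of -0.54 (interval -1.75 to 0.67, edgeR's adjusted p = 0.759) rested on the second of these libraries, being -0.02 without acute CS F and -1.37 without acute CS M. Chronic RA M1, M2 and F were at 116.6, 94.4 and 75.4 CPM. Chronic CS F, M1, M2, M3 and M4 were at 104.9, 63.7, 39.2, 135.0 and 140.7 CPM. Chronic CS M2 and M4 therefore enclosed all the controls, and the log2 fold change of 0.02 had an interval of -0.86 to 0.90 (edgeR's adjusted p = 0.994). The value was -0.45 with chronic CS F, M1 and M2 and 0.53 with chronic CS M3 and M4.

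Hmox1 (ENSMUSG00000005413; chromosome 8, 75093621 to 75100589) encodes haem oxygenase-1, which opens the haem ring and is also induced by haem itself. Its levels were 54.6 and 72.0 CPM in acute RA F and M and 59.6 and 65.3 CPM in acute CS F and M. Both smoke libraries lay between the controls (log2 fold change -0.02, interval -0.90 to 0.86, edgeR's adjusted p = 0.996). In chronic RA it was at 72.9, 79.6 and 77.1 CPM in M1, M2 and F, and in chronic CS at 46.7, 60.7, 21.1, 55.9 and 70.9 CPM in F, M1, M2, M3 and M4. All 5 chronic CS libraries lay below all 3 controls, with means of 51.0 ± 18.9 (SD, n = 5) and 76.5 ± 3.41 CPM (SD, n = 3). It was the only 1 of the 10 genes whose chronic groups did not overlap, beside 9.41% of all genes tested and 5.49% with CS lower. The exact two-sided permutation test of this gene alone gave p = 0.0357, the smallest that 5 against 3 libraries allow. In the fit over all genes the log2 fold change of -0.58 (SE 0.29, interval -1.22 to 0.05) did not pass (edgeR's adjusted p = 0.486). It moved to -0.39 without chronic CS M2, and was -0.83 with chronic CS F, M1 and M2 and -0.27 with the more deeply sequenced M3 and M4. The summed epithelial and mesenchymal markers separated the same groups in the opposite direction, and their part in the Hmox1 level was not tested.

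Gclc (ENSMUSG00000032350; chromosome 9, 77754535 to 77794485) and Gclm (ENSMUSG00000028124; chromosome 3, 122245557 to 122270732) encode the catalytic and the modifier subunit of glutamate-cysteine ligase, the rate-limiting enzyme of glutathione synthesis. Gclc was counted at 54.0 and 44.6 CPM in acute RA F and M and at 78.5 and 57.8 CPM in acute CS F and M. Both acute CS libraries were above both controls, but the log2 fold change of 0.47 (interval -0.06 to 0.99) did not pass (edgeR's adjusted p = 0.393). It was 0.23 without acute CS F. In chronic RA M1, M2 and F, Gclc was at 50.3, 71.7 and 58.5 CPM, and in chronic CS F, M1, M2, M3 and M4 at 66.8, 63.0, 55.2, 75.8 and 84.9 CPM. The groups overlapped, with M3 and M4 above all controls (log2 fold change 0.20, interval -0.18 to 0.59, edgeR's adjusted p = 0.703). This value was 0.105 without chronic RA M1 and 0.36 without chronic RA M2.

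Gclm was at 50.4 and 61.2 CPM in acute RA F and M and at 59.0 and 74.4 CPM in acute CS F and M, so that each smoke library exceeded the control of its own sex while the groups overlapped. The log2 fold change was 0.26 (interval -0.24 to 0.76, edgeR's adjusted p = 0.702), being 0.08 without acute CS M and 0.41 without acute CS F. In the chronic groups it lay between 51.4 and 66.9 CPM in RA and between 45.1 and 69.0 CPM in CS, with a log2 fold change of 0.02 (interval -0.35 to 0.38, edgeR's adjusted p = 0.985). Per length, mRNA of the catalytic subunit exceeded that of the modifier subunit in every library, by a ratio in FPKM of 1.22 (acute RA M) to 2.34 (chronic CS M1). Gm17494 and Gm6061 overlap Gclm.

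Slc7a11 (ENSMUSG00000027737; chromosome 3, 49892526 to 50443614) encodes the cystine carrier that supplies cysteine for glutathione. It was counted at 6.42 and 7.11 CPM in acute RA F and M and at 4.62 CPM in acute CS M, but at 27.7 CPM in acute CS F, the highest value of all 12 libraries. One smoke library was thus above and one below the controls, and the log2 fold change of 1.26 (SE 0.81, interval -0.53 to 3.05, edgeR's adjusted p = 0.535) became -0.55 without acute CS F. That library also had the highest sums of leukocyte, alveolar macrophage, blood endothelial and epithelial markers and the lowest of lymphatic markers, and their part in its Slc7a11 and Nqo1 levels was not tested. In chronic RA M1, M2 and F, Slc7a11 was at 1.79, 1.67 and 5.92 CPM and in chronic CS F, M1, M2, M3 and M4 at 2.52, 2.99, 3.41, 6.18 and 3.01 CPM. These values lay above the floor of 3 counts but overlapped (log2 fold change 0.22, interval -1.09 to 1.53, edgeR's adjusted p = 0.922). Without chronic RA F the value was 1.07. Several short gene models overlap this long gene.

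Txnrd1 (ENSMUSG00000020250; chromosome 10, 82833951 to 82897712) encodes cytosolic thioredoxin reductase. Its levels were 68.8 and 78.2 CPM in acute RA F and M and 88.2 and 90.4 CPM in acute CS F and M, both above the controls. The log2 fold change of 0.28 had an interval of -0.29 to 0.85 (edgeR's adjusted p = 0.716). In chronic RA M1, M2 and F it was at 94.1, 88.0 and 91.7 CPM, and in chronic CS F, M1, M2, M3 and M4 at 75.3, 48.1, 62.6, 89.3 and 94.1 CPM. The controls were tight and chronic CS split, with F, M1 and M2 below all controls and M3 and M4 among them. The log2 fold change was -0.30 (interval -0.72 to 0.11, edgeR's adjusted p = 0.571), being -0.55 with F, M1 and M2 and 0.01 with M3 and M4. Eid3, Gm38560 and Gm47073 overlap Txnrd1.

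Srxn1 (ENSMUSG00000032802; chromosome 2, 152105516 to 152111376) encodes sulfiredoxin, which reduces overoxidised peroxiredoxins. Acute RA F and M had 24.9 and 41.5 CPM, and both acute CS libraries lay between these at 34.1 CPM in F and 39.1 CPM in M (log2 fold change 0.14, interval -0.53 to 0.81, edgeR's adjusted p = 0.919). This value was -0.18 without acute RA F and 0.51 without acute RA M. In chronic RA it ranged from 32.4 to 36.4 CPM. In chronic CS it ranged from 21.9 CPM in M2 to 39.6 CPM in M4, with a log2 fold change of -0.19 (interval -0.68 to 0.30, edgeR's adjusted p = 0.787), being -0.09 without chronic CS M2 and -0.30 without chronic CS M4.

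G6pdx (ENSMUSG00000031400; chromosome X, 74409483 to 74429194) encodes glucose-6-phosphate dehydrogenase, the first and rate-limiting enzyme of the pentose phosphate pathway and a main source of cytosolic NADPH, which glutathione and thioredoxin reductases consume. It was counted at 27.6 and 24.3 CPM in acute RA F and M and at 79.5 and 50.1 CPM in acute CS F and M. Both acute CS libraries lay above every other library of the study, F more so than M. G6pdx was 2.49-fold higher after acute smoke (interval 1.66-fold to 3.74-fold, log2 fold change 1.32, SE 0.27, edgeR's adjusted p = 0.0221). The exact two-sided permutation test of 2 against 2 libraries cannot go below p = 0.333, which it gave here. In chronic RA M1, M2 and F it was at 28.8, 26.3 and 28.1 CPM, and in chronic CS F, M1, M2, M3 and M4 at 28.8, 21.5, 28.9, 36.6 and 25.3 CPM. The chronic groups had nearly the same mean, 28.2 and 27.7 CPM, with a log2 fold change of 0.02 (interval -0.40 to 0.45, edgeR's adjusted p = 0.977).

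The acute call of G6pdx depended on single libraries and on which libraries and terms were in the fit. The adjusted p of edgeR was 0.198 without acute CS F (log2 fold change 0.95), 0.130 without acute RA F (1.41), 0.219 without acute RA M (1.18), 0.125 when only the acute libraries were fitted (1.31) and 0.0862 with the replicate block (1.28). The direction held in each of these fits. The difference between the acute and the chronic effect on G6pdx was 1.29 on the log2 scale (SE 0.33, interval 0.58 to 2.01) with an unadjusted p of 0.00208, and did not pass over all genes (edgeR's adjusted p = 0.117). Of the 10 genes, 0 passed this test of the difference in edgeR, beside 0.452% of all genes tested, and 1, G6pdx, had an unadjusted p under 0.05, beside 11.9%. DESeq2 called 1 of the 10, G6pdx, at an adjusted p of 0.0106, and 920 of the 21440 genes. Ikbkg overlaps G6pdx on the opposite strand and was at 44.3 and 58.3 CPM in acute CS against 45.7 and 41.6 CPM in acute RA (log2 fold change 0.23, edgeR's adjusted p = 0.868). The retrogene G6pd2, a close copy elsewhere in the genome, had 2 to 30 counts in a library.

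**Figure D4:**
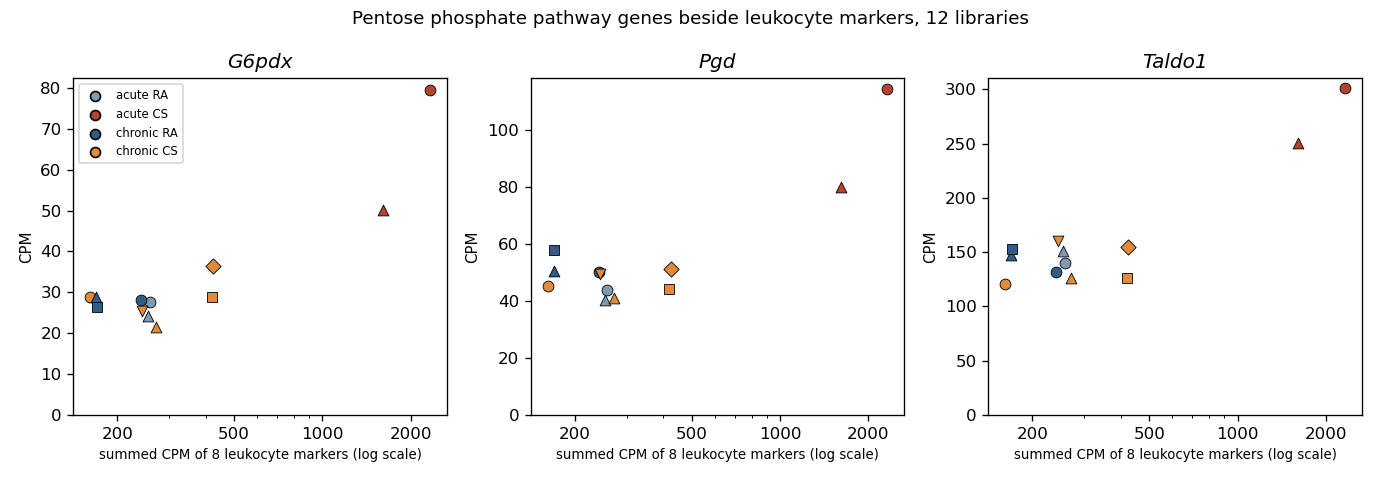
CPM of G6pdx, Pgd and Taldo1 in each of the 12 libraries against the summed CPM of 8 leukocyte markers (log scale), coloured by group, with the symbols for sex and number of the plot of normalised counts by library. Both acute CS libraries, at 1609 and 2324 CPM of leukocyte markers, have the highest values of all 3 genes, and the 10 other libraries lie together at 162 to 424 CPM of leukocyte markers.

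The further enzymes of the same pathway were looked at after their values were seen. Pgd, the second NADPH-forming step, was at 114.6 and 80.0 CPM in acute CS F and M and at 43.7 and 40.5 CPM in acute RA F and M, a log2 fold change of 1.21 (SE 0.19, edgeR's adjusted p = 0.00810). Taldo1, or transaldolase, was at 301.0 and 250.9 CPM against 139.6 and 151.3 CPM, a log2 fold change of 0.92 (SE 0.17, edgeR's adjusted p = 0.0146). Tkt, or transketolase, was at 145.4 and 149.6 CPM against 90.1 and 101.8 CPM without passing (0.62, SE 0.19, edgeR's adjusted p = 0.123). For each of these enzymes both acute CS libraries lay above both controls. In the chronic comparison the values were -0.19 for Pgd, -0.07 for Taldo1 and -0.11 for Tkt, with adjusted p from edgeR of 0.629 to 0.875. Pgd was the only 1 of the 33 further targets tested that passed the test of the acute against the chronic effect (1.40, SE 0.23, edgeR's adjusted p = 0.0406), beside 0.452% of all genes, whereas DESeq2 called 8 of the 33 and 920 of the 21440 genes. In edgeR 0 of the 33 passed with sex as a covariate, with the replicate block, with chronic CS M3 and M4 only, and without any 1 of acute CS F, either acute RA library, the 3 chronic RA libraries and chronic CS F, M3 and M4. Ptprc, the common leukocyte antigen, was at 284.6 and 154.1 CPM in acute CS F and M against 19.8 and 19.6 CPM in acute RA F and M, and so was higher in the same libraries and in the same order as G6pdx, Pgd and Taldo1. The summed markers of alveolar macrophages and of blood endothelium were likewise highest in acute CS F and next in acute CS M, and those of mesenchyme were highest in acute CS M and next in acute CS F. The part of these cells in the values was not tested.

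Beyond the 10 genes, 36 other enzymes and carriers known as NRF2 targets were listed, of which 33 could be tested. After acute smoke 7 of the 33 rose and none fell, beside 3.47% of all genes, and the median log2 fold change was 0.62. DESeq2 called 10 of the 33, all higher, where it called 1961 of the 21440 genes. Calls of edgeR among the 33 were 2 with only the acute libraries in the fit, 1 with the replicate block, 3 without acute CS F, 1 without acute RA F and 0 without acute RA M, where its calls over all genes were 144, 73, 173, 65 and 2 in the same order. In the same 2 acute CS libraries the leukocyte, alveolar macrophage, blood endothelial and mesenchymal marker sums were higher and the lymphatic sum lower than in all the others, and their part in these values was not tested. Gstm1, a glutathione transferase, was at 494.0 and 440.8 CPM in acute CS F and M and at 110.7 and 126.4 CPM in acute RA F and M (log2 fold change 1.98, SE 0.24, edgeR's adjusted p = 0.00400). Both CS libraries were well above both controls, close to each other. Mgst1, a membrane-bound glutathione transferase, rose by 1.52 (SE 0.27, edgeR's adjusted p = 0.0124), Txn1, or thioredoxin, by 0.83 (SE 0.12, edgeR's adjusted p = 0.00725) and Ftl1, the light chain of the iron store ferritin, by 0.80 (SE 0.12, edgeR's adjusted p = 0.00797). The other three genes that passed were Pgd and Taldo1, described with G6pdx, and Me1, the cytosolic malic enzyme and another source of NADPH, at 15.2 and 15.4 CPM in acute CS F and M against 4.12 and 2.04 CPM in acute RA F and M (log2 fold change 2.31, SE 0.41, edgeR's adjusted p = 0.0124). Me1 and Taldo1 were named after their values were seen. Slc3a2, the partner chain of Slc7a11 in the cystine carrier, was at 585.1 and 660.0 CPM in acute CS and 339.8 and 357.8 CPM in acute RA, and did not pass (0.84, SE 0.24, edgeR's adjusted p = 0.0891). Without acute RA F none of Gstm1, Txn1, Ftl1, Pgd and Mgst1 passed (adjusted p of edgeR from 0.0504 to 0.123), nor did any of them without acute RA M (0.0764 to 0.118), with log2 fold changes between 0.75 and 2.03 in these fits.

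**Figure D5:**
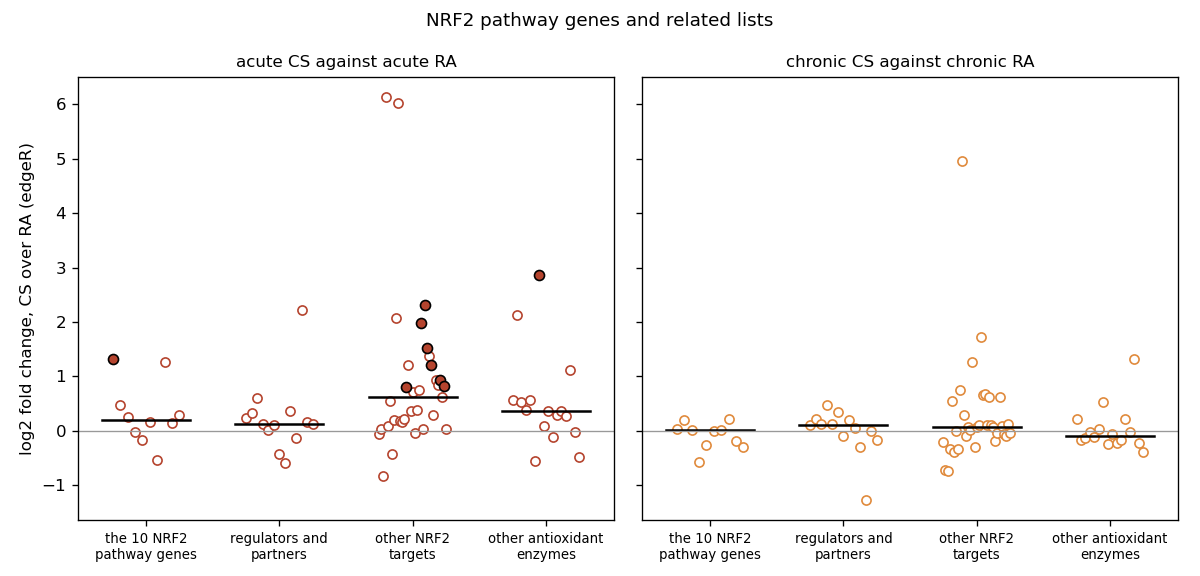
Log2 fold change of CS over RA from edgeR for the 10 NRF2 pathway genes, 13 regulators and partners, 33 other NRF2 targets and 16 other antioxidant enzymes, in the acute (left) and chronic (right) comparison, with medians as lines and filled points for an adjusted p under 0.05. Filled points are 1, 0, 7 and 1 in the acute comparison and none in the chronic comparison.

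Of 13 regulators and partners of NRF2, 0 passed in the acute comparison by edgeR or DESeq2 (median log2 fold change 0.13), and 2 of the 13 had an unadjusted p under 0.05, beside 15.7% of all genes. These were Mafk, encoding a small MAF partner of NRF2, at 0.36 (SE 0.15, edgeR's adjusted p = 0.277), and Btrc, encoding a subunit of another ligase that marks NRF2, at 0.60 (SE 0.26, edgeR's adjusted p = 0.284). Mafg and Maff, encoding the other small MAF proteins, were at -0.60 (SE 0.28) and -0.43 (SE 0.22) without passing. Of 16 antioxidant enzymes not listed as NRF2 targets, 1 rose in the acute comparison, beside 3.47% of all genes, and 0 were called with the replicate block. The median was 0.36, and DESeq2 called 5, 4 of them higher, where it called 1961 of the 21440 genes. This was Msrb1, a methionine sulfoxide reductase, at 43.0 and 19.4 CPM in acute CS F and M against 4.83 and 3.75 CPM in acute RA F and M (log2 fold change 2.86, SE 0.44, edgeR's adjusted p = 0.00797). Its adjusted p was 0.0554 without acute CS F, 0.0687 without acute RA F and 0.108 without acute RA M. Glrx, or glutaredoxin, was at a log2 fold change of 2.14 (SE 0.63) and did not pass (edgeR's adjusted p = 0.100). The leukocyte, alveolar macrophage, blood endothelial and mesenchymal marker sums were also higher in both acute CS libraries. Their part in the Msrb1 and Glrx values was not tested.

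After chronic smoke 0 genes of the 3 lists passed in edgeR, as was the case for all genes tested. Medians of the log2 fold change were 0.10 for the regulators and partners, 0.07 for the other targets and -0.09 for the other antioxidant enzymes, beside 0.01 over all genes. At an unadjusted p under 0.05 there were 1 of 13, 4 of 33 and 3 of 16 genes, beside 10.9% of all genes. DESeq2 called 0, 1 and 1 of these lists where it called 524 of all genes. Gstm1 was at 178.2, 250, 289.2, 327.9 and 275.4 CPM in chronic CS F, M1, M2, M3 and M4 and at 186.7, 162.3 and 144.8 CPM in chronic RA M1, M2 and F. Thus 4 of the 5 CS libraries lay above all controls, with a log2 fold change of 0.68 (SE 0.18, edgeR's adjusted p = 0.265, DESeq2's adjusted p = 0.00777). Sod3, encoding the extracellular superoxide dismutase, was at 27.7, 67.4, 39.0, 64.0 and 43.9 CPM in chronic CS F, M1, M2, M3 and M4 and at 13.3, 18.1 and 27.1 CPM in chronic RA M1, M2 and F. All 5 CS libraries lay above the controls, F only just (log2 fold change 1.31, SE 0.31, edgeR's adjusted p = 0.253, DESeq2's adjusted p = 0.00231). The epithelial and the mesenchymal marker sums were also higher in all 5 chronic CS libraries than in the controls, and their part in the Sod3 and Gstm1 levels was not tested. Gpx4, the peroxidase of lipid hydroperoxides, was at -0.29 (SE 0.11, edgeR's adjusted p = 0.402), Nfe2l1, encoding a factor related to NRF2, at -0.31 (SE 0.11, edgeR's adjusted p = 0.381) and Prdx2, a peroxiredoxin, at -0.25 (SE 0.10, edgeR's adjusted p = 0.428).

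The SD of CPM was larger in chronic CS than in chronic RA for 9 of the 10 genes, Slc7a11 being the exception, though this difference was not tested. A wider spread was not particular to these genes. Over the genes tested in general, the median chi-square between libraries of a group was 10.1 to 29.7 in chronic CS and 6.34 to 7.72 in chronic RA. Chronic CS M4 held the highest value of the 5 for 8 of the 10 genes and M3 for the other 2, whereas M2 held the lowest for 5 genes, M1 for 3 and F for 2. The shares of all genes with a larger SD in chronic CS, or with these highest and lowest libraries, were not computed. M3 and M4 had total counts of 47494020 and 45436986, and F, M1 and M2 had 18821438 to 22885446, against 32858543 to 36499108 in the controls. The lymphatic marker sum was lower in M1 and M2, at 13731 and 14118 CPM, than in F, M3 and M4, at 18964 to 20059 CPM. The part of depth and of lymphatic content in these differences was not tested.

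Between the room air groups, which serve as controls in the comparisons already given, 0 of the 10 genes passed (edgeR, 0% of all genes tested). At an unadjusted p under 0.05 the count was 0 of 10, beside 7.01% of all genes. This count was 2 with only the room air libraries fitted, beside 3339 of all genes. It was 1 without chronic RA F and with chronic CS M3 and M4 only, beside 1179 and 2792 of all genes. DESeq2 called 0 of the 10 where it called 253 of all genes. For 5 of the 10 genes the groups did not overlap, beside 34.7% of all genes. Nfe2l2, Keap1, Hmox1 and Txnrd1 lay higher in every chronic RA library, as did 17.7% of all genes, and Slc7a11 lay lower, as did 17.0%. The log2 fold changes of chronic over acute RA were 0.22 for Nfe2l2 (interval -0.10 to 0.53), 0.18 for Keap1 (-0.24 to 0.60), 0.27 for Hmox1 (-0.54 to 1.08), 0.31 for Txnrd1 (-0.21 to 0.83) and -1.11 for Slc7a11 (-2.71 to 0.48). The value for Hmox1 was 0.09 without acute RA F, and that for Slc7a11 was -1.97 without chronic RA F. Their exact two-sided permutation p was 0.2 each, the smallest that 3 against 2 libraries allow. The marker sums also separated the room air groups, with lymphatic markers at 13628 and 15421 CPM in acute RA and 18669 to 21390 CPM in chronic RA, epithelial markers at 1081 and 1934 CPM against 252.5 to 518.4 CPM, and erythroid markers at 37.7 and 69.9 CPM against 196.1 to 432.7 CPM, and their part in these values was not tested.

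Over the 12 libraries the likeness of the 10 genes differed widely from pair to pair, and no value for pairs over all genes was computed. The median Pearson r of log2 CPM over the 45 pairs was 0.21, and 35 pairs were above 0. The closest pairs were Hmox1 with Srxn1 (r = 0.79), G6pdx with Slc7a11 (0.70) and Nfe2l2 with Nqo1 (0.68), whereas Nqo1 with Slc7a11 was at -0.60. The points share the same 12 libraries, which differ in depth and in markers of other cells. Among all genes tested, the pattern of Nfe2l2 was most like that of Fth1, the ferritin heavy chain (r = 0.93), Ramac (0.91) and Galnt15 (0.90), and that of Keap1 most like Zfp94 (0.93), Arfgap2 (0.92) and Cebpg (0.91). Nqo1 was closest to Ttpa (0.97), Map1lc3b (0.96) and Upp2 (0.95), and Hmox1 to Mrps5 (0.98), Nudt1 and Armcx6 (0.97 each). Gclc was closest to Esrp1 (0.87), Robo1 (0.85) and Foxj3 (0.84), and Gclm to BC029722 (0.89), 4833413G10Rik (0.85) and Rtn3 (0.83). For Slc7a11 they were Gpt (0.91), Lrrc25 (0.90) and Slc16a3 (0.89), for Txnrd1 Anapc7, Thsd1 and Ostm1 (0.95 each), and for Srxn1 Zfp105 (0.92), Catsperd and 1700020D05Rik (0.91 each). G6pdx was closest to Stk10 (0.98), Hmgb1-ps8 (0.97) and Soat1 (0.96). These values describe likeness over 12 libraries among 21440 genes and carry no test.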

How the data were processed

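The authors deposited read counts per Ensembl gene for each library. Libraries were prepared from the RNA of sorted cells with SMART-Seq v4 and Nextera XT kits. Reads were checked with FastQC 0.11.9, processed by the DEE2 workflow with Skewer and Minion, and mapped to GRCm38 with STAR, whose GeneCounts mode gave the counts. The strand setting and the annotation release are not given in the sources used here, and neither is a rule for reads of several places. Names, positions and exon lengths were taken from GENCODE M21, which lacked 147 of the identifiers.

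Counts were filtered by filterByExpr, scaled with TMM factors to CPM and fitted by group over all 12 libraries with the quasi-likelihood F-test of edgeR 4.0.16 (R 4.3.3, limma 3.58.1), with Benjamini-Hochberg adjustment over all 21440 genes and a limit of 0.05. The fit was tested on simulated data. FPKM use the union of exons. For single genes, log2 CPM (prior count 2) of the groups also went into an exact two-sided permutation test. DESeq2 1.42.0 was an alternative. Groups came from the labels, and the 10 genes, the lists and the tests were chosen with earlier results of these data known. Of each list, up to 5 genes with the smallest acute p and 3 with the smallest chronic p were eligible for naming, and for each of the 10 genes the 3 genes with the highest Pearson r. In the acute comparison Taldo1, Tkt, Me1 and Slc3a2 were named outside this rule. The other alternatives were DESeq2's size factors, library size, no filter, sex as a covariate, only the groups compared, a block by sex and number, robust estimation, leaving out each library, and chronic CS F, M1 and M2 or M3 and M4 only. Figures were drawn with matplotlib 3.10.9 in Python 3.11.15 with pandas 2.3.3. Depth limits precision as the floor of 3 counts states, which covers counting error only.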

Additional observations from a re-analysis of the deposited data

How the results depend on the processing

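The 1 acute call among the 10 genes, G6pdx, was lost, giving 0 calls, when only the groups compared were fitted and with the replicate block (log2 fold change 1.28, edgeR's adjusted p = 0.0862), and ranged from 0 to 1 over the fits that left out a library. In the difference of the acute and chronic effects, 0 of the 10 genes were called, 1 with DESeq2 and 0 to 1 with a library left out (1 without acute CS M). Same-numbered libraries did not deviate together (correlations of -0.0419 to 0.0693), so the numbers were not taken as pairs. Of the 3 chronic CS libraries with a numbered control, 1 was closest to the control of its own sex and number. Both acute CS libraries were closest to the control of their own sex. With 2 libraries per group their deviations are exact opposites, so these count as 1 result. The block left 1 of the 7 calls among the other targets and 0 of the 1 among the other antioxidant enzymes.

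Counts over all genes moved more. The acute count of 745 became 1961 with DESeq2, 144 with only the groups compared, 73 with the block, and 2 (without acute RA M) to 978 with a library left out. The chronic count of 0 became 524 with DESeq2, 10 without the filter, 1 with chronic CS F, M1 and M2, 16 with M3 and M4, and 0 to 4 with a library left out. The room air count of 0 became 253 with DESeq2, 6 without the filter, 57 with only the groups compared, 3 with chronic CS F, M1 and M2, 8 with M3 and M4, and 0 to 2 with a library left out. The count of differing effects of 97 became 920 with DESeq2, 191 without the filter, 21 with sex as a covariate, 0 with the block, and 0 to 262 with a library left out. The cause was not tested.

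No log2 fold change of the 10 genes that changed sign was called in any fit. In the chronic comparison, signs reversed with sex as a covariate for Nfe2l2 (-0.0227) and Gclm (-0.0189), and with the block for Nfe2l2 (-0.118), Nqo1 (-0.562), Gclm (-0.108) and G6pdx (-0.0838). In this comparison the block rests on chronic CS F, M1 and M2. With the same chronic CS libraries and no block, signs reversed for Nfe2l2 (-0.111), Nqo1 (-0.454), Gclm (-0.0903), Slc7a11 (-0.0642) and G6pdx (-0.0658). With chronic CS M3 and M4 they reversed for Txnrd1 (0.00683) and Srxn1 (0.0268). With library size in place of TMM the room air values of Gclm (-0.0390), Srxn1 (-0.0269) and G6pdx (-0.0115) reversed. With a library left out, acute values ranged from -0.0307 to 0.312 for Nfe2l2, -0.206 to 0.145 for Hmox1, -0.550 to 2.03 for Slc7a11 and -0.182 to 0.507 for Srxn1. Chronic values ranged from -0.0474 to 0.0448 for Nfe2l2, -0.154 to 0.22 for Nqo1, -0.0701 to 0.132 for Gclm, -0.0754 to 1.07 for Slc7a11 and -0.0717 to 0.108 for G6pdx. Room air values ranged from -0.0652 to 0.191 for Gclm, -0.247 to 0.468 for Srxn1 and -0.0169 to 0.191 for G6pdx.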
